A study of Mus musculus with 12 samples.

Results

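The Bcl2 family genes described here are 10 genes chosen by name from the 38911 genes listed in the count files: the pro-survival genes Bcl2, Bcl2l1 and Mcl1, the effectors Bak1 and Bok, and the BH3-only genes Bcl2l11, Bid, Bik, Bmf and Bad. No measured value entered the rule, which sums the RefSeq transcript counts of each gene symbol. Levels were measured by sequencing polyA RNA of mouse gastruloids on day 4. Gastruloids are aggregates of embryonic stem (ES) cells that form cells of the germ layers and elongate along an axis. All were made from the E14TG2a line kept in 2iLIF medium, and all received a pulse of the Wnt activator CHIR on day 2. From day 3 to day 4 they were kept in 1 of 4 treatments. Glucose was at 0 mM (0× glucose), 21.25 mM (1× glucose, the control) or 63.75 mM (3× glucose). In the last treatment 5 mM 2-deoxy-D-glucose (2-DG) was added to 1× glucose. 2-DG is an analog of glucose that blocks glycolysis, and it also competes with mannose in protein glycosylation. Each of the 4 treatments had 3 libraries, 1 from each of ES cell passages 13, 15 and 16, and each library pooled gastruloids from 1 plate. The paper describes treating gastruloids grown in the same plate, so that libraries of 1 passage may also share a plate. A library averages over all cells of its pooled gastruloids, and fewer cells of a type cannot be told apart from less RNA per cell. All 3 replicates come from 1 cell line, so that their spread is that between cultures of this line.

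Proteins of the Bcl2 family decide whether the outer membrane of mitochondria is opened, the step that releases cytochrome c and starts the caspases. Pro-survival members hold the effectors in check, effectors form the pores, and BH3-only members pass on stress signals by binding to either of them. In the early embryo the balance of these proteins is known to set how readily epiblast cells die. Most of this control acts on proteins, through cleavage, phosphorylation and turnover, which RNA levels do not show.

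The 10 members have in common in sequence the BH3 core, part of a short helix involved in binding between family members. It is shown because it defines the family. The coding sequence of its core was read from GENCODE transcripts of mouse genome build GRCm38 (mm10), 27 bases each from the leucine codon onward, and the capitals mark the codon for glycine, alanine or serine and the codon for the aspartate that follows it.
Bcl2: ctccgccgggctGGGGATgacttctct
Bcl2l1: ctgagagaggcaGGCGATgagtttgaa
Mcl1: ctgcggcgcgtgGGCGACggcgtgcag
Bak1: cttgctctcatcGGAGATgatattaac
Bok: ctgctgcgcttgGGAGATgagctggag
Bcl2l11: ctgcggcggatcGGAGACgagttcaac
Bid: ctcgcccaaataGGCGATgagatggac
Bik: ctggcctgcatcGGCGATgagatggac
Bmf: cttcagtgtattGCAGACcagttccat
Bad: ctccgaaggatgAGCGATgagtttgag
The capitals differ between members mostly in the third base of each codon. Bmf alone has an alanine codon and Bad alone a serine codon in the first of these positions. The stretch lies within 1 coding exon in 9 members: Bcl2 (chr1:106712575-106712601, minus strand, exon 1 of 2), Bcl2l1 (chr2:152829697-152829723, minus strand, exon 2 of 3), Mcl1 (chr3:95659436-95659462, plus strand, exon 1 of 3), Bak1 (chr17:27022531-27022557, minus strand, exon 4 of 6), Bcl2l11 (chr2:128147150-128147176, plus strand, exon 3 of 4), Bid (chr6:120897289-120897315, minus strand, exon 4 of 6), Bik (chr15:83543084-83543110, plus strand, exon 3 of 5), Bmf (chr2:118545100-118545126, minus strand, exon 4 of 5) and Bad (chr19:6950792-6950818, plus strand, exon 3 of 4). In Bok it is split between exons 2 and 3 of 5, on the plus strand, and an intron lies within chr1:93686657-93689170.

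All 10 members had counts in all 12 libraries, and all 10 were among the 16966 genes that passed the filter on low counts. Libraries held 31902471 to 45956080 counts. The 1× glucose libraries were the deepest as a group, at 38439471 to 45956080. Levels are given as CPM, the share of a library's counts scaled to a fixed library size after the libraries were brought to 1 scale by the trimmed mean of M-values. The label "Embryonic Stem Cell" was checked against markers: in 1× glucose 6 mesoderm markers summed to 695 to 1014 CPM, and 5 pluripotency and germ cell markers to 28.5 to 45.6 CPM, with Dppa3 at 7 counts or fewer in every library. Of the markers of blood, Hbb-bh1 was at 0 in all libraries. Passage 13 stood apart in these markers. Its 4 libraries held 157 to 316 CPM of the 6 neural markers, against 56.3 to 157 CPM in passages 15 and 16, and 19.2 to 25.8 CPM of the 4 endoderm markers against 30.3 to 215 CPM.

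**Figure D1:**
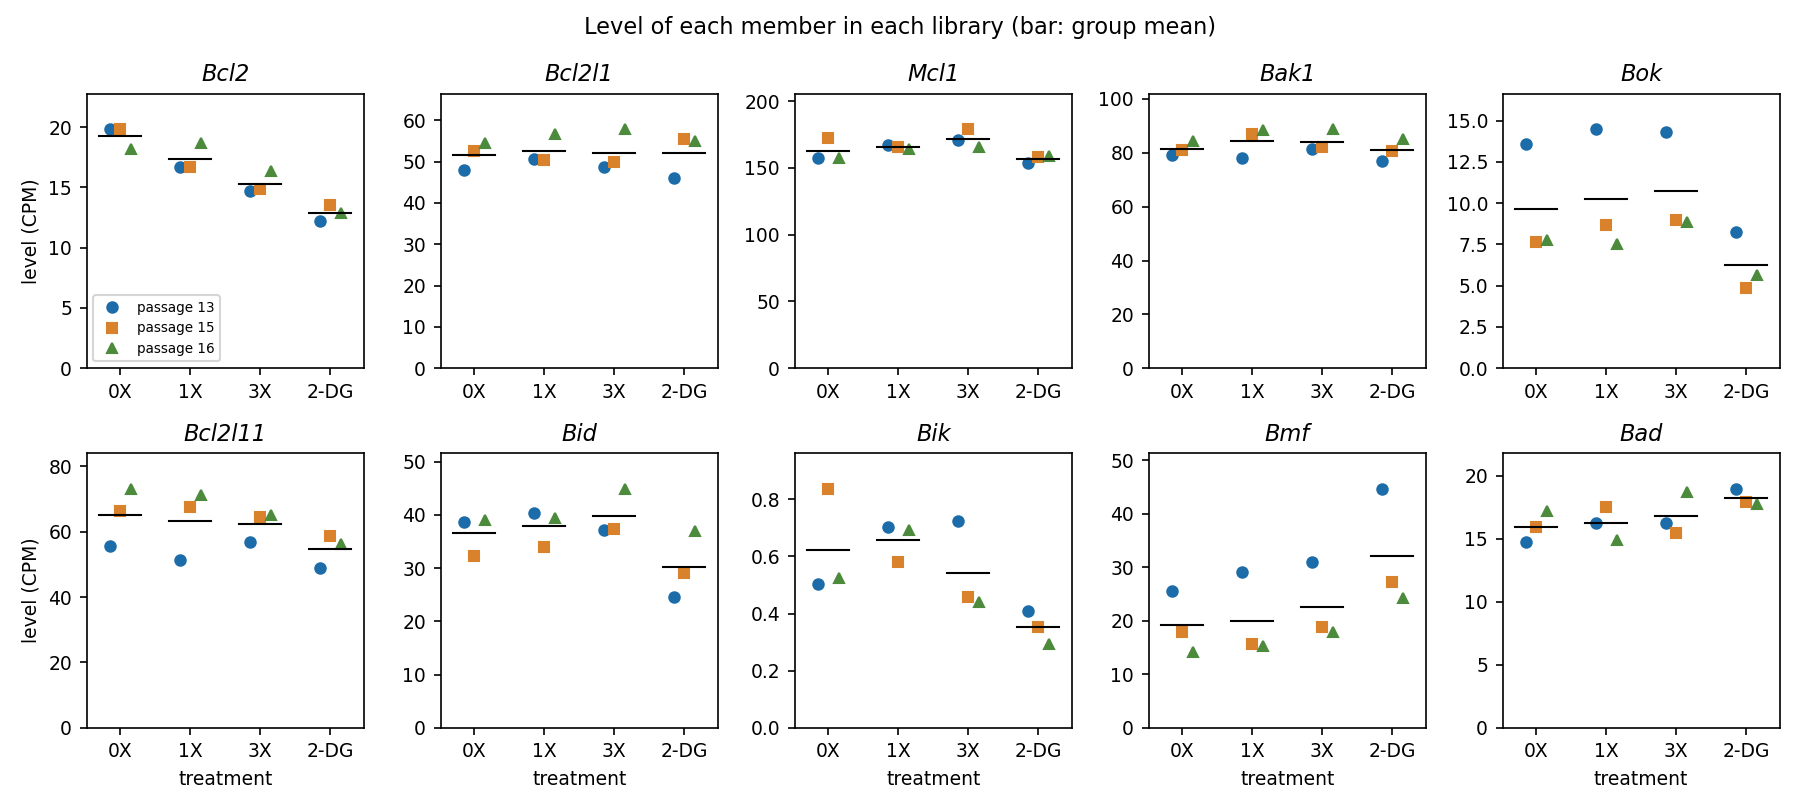
Level of each of the 10 members (vertical axis, CPM, from 0) in the 12 libraries, by treatment (0×, 1×, 3× glucose and 2-DG), with 1 point per library, its shape and colour giving the ES cell passage, and a bar at the group mean. Bcl2 in 2-DG, at 12.2 to 13.5 CPM, lies below all other libraries, and Bok and Bmf are highest in passage 13 within each treatment.

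To compare members with each other, CPM was divided by the length of 1 transcript of each gene. Over all libraries this transcript held 21.4% of the counts of Bik, 29.3% of Bcl2l11, 51.8% of Bad and 55.3% of Bmf. The levels per length of these genes therefore depend on the transcript chosen. In 1× glucose Mcl1, a short-lived pro-survival protein, had the highest level per length, at 48.4 ± 0.414 CPM per kb (SD, n = 3). Bak1, the effector that sits on mitochondria in healthy cells, followed at 35.4 ± 2.30 CPM per kb, and Bcl2l1, the gene of the pro-survival protein Bcl-xL, at 21.7 ± 1.45 CPM per kb. Next came Bid at 17.3 ± 1.55, Bad at 16.4 ± 1.33 and Bcl2l11 at 12.6 ± 2.09 CPM per kb. Bid and Bad overlapped in their libraries, so that their order is not resolved. Bok (6.97 ± 2.53), Bmf (4.31 ± 1.71), Bcl2 (2.41 ± 0.163) and Bik (0.698 ± 0.0727 CPM per kb) were the lowest. Bok, an effector related to Bak1, and Bmf overlapped as well. In 2-DG, Bad stood above Bid (18.4 ± 0.657 against 13.8 ± 2.87 CPM per kb), and Bmf above Bok (6.90 ± 2.37 against 4.25 ± 1.20, with overlapping libraries), whereas the other ranks were those of 1× glucose. Among the 3 pro-survival members Bcl2 was thus the least abundant per length in these gastruloids, both in the control and in 2-DG.

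The comparison of 2-DG with 1× glucose asks how these genes differ between 2-DG and the control. Bcl2 was lower in 2-DG, and it was the only one of the 10 members called at an adjusted p under 0.05 by edgeR's quasi-likelihood test, in a comparison that called 17.6% of all genes tested. Bok, Bcl2l11, Bid and Bik were lower and Bmf was higher in 2-DG within each of the 3 passages, but these differences were called only when passage was a block of the fit. With the block, 6 of 10 members were called (5 lower, 1 higher), where 41.3% of all genes were. Bcl2l1, Mcl1, Bak1 and Bad were called by neither fit. The median log2 fold change of the 10 members was -0.15, against 0.00 over all genes tested. The libraries of 2-DG and 1× glucose did not overlap for 4 of 10 members (Bcl2, Mcl1, Bik and Bad), as for 35.4% of all genes.

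**Figure D2:**
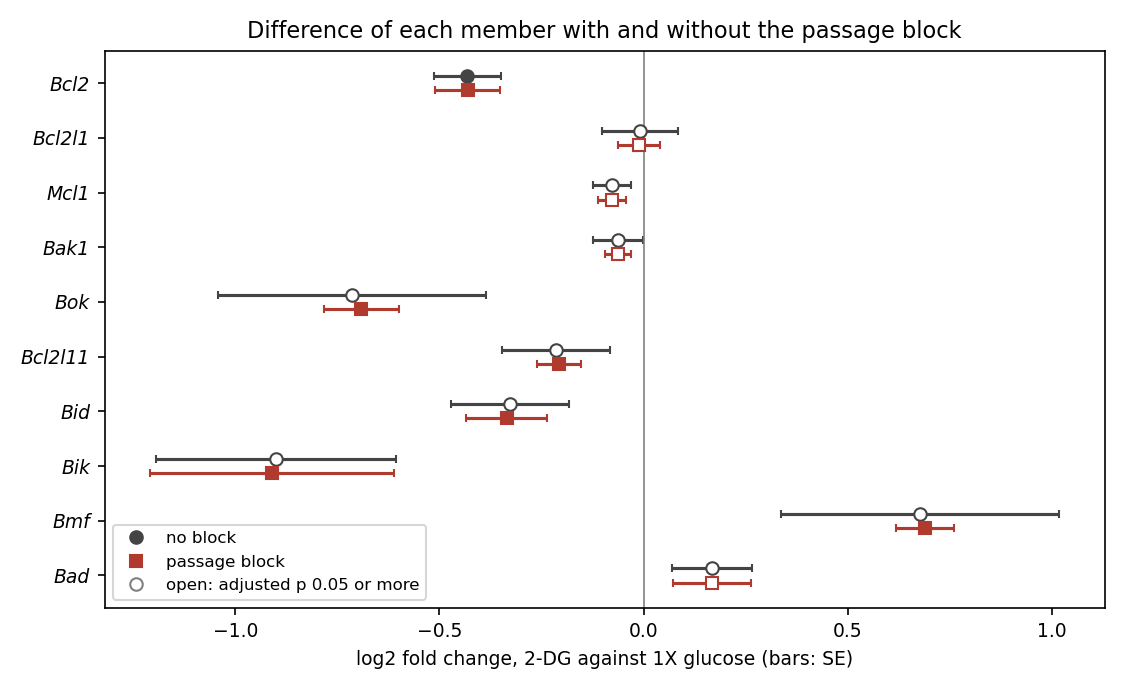
Log2 fold change of each member in 2-DG against 1× glucose (horizontal axis, with bars of 1 standard error) from the fit without a passage block (circles) and with it (squares), filled where the adjusted p was under 0.05. The estimates are almost the same in both fits. For Bok the standard error is 0.328 without and 0.0918 with the block, and for Bmf 0.341 and 0.0708.

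Of the pro-survival genes, Bcl2 encodes the founding member of the family. Its level was 16.7, 16.7 and 18.7 CPM in the 1× glucose libraries of passages 13, 15 and 16, and 12.2, 13.5 and 12.9 CPM in those of 2-DG. All 2-DG libraries lay below all 1× glucose libraries. The log2 fold change was -0.43 ± 0.083 (SE), a 1.35-fold lower level (edgeR adjusted p = 0.00634). With the passage block it was also -0.43 (edgeR adjusted p = 0.00153). Without any single library of either group the edgeR adjusted p was between 0.0150 and 0.0262. Beside this, the neural markers summed to 64.2 to 176 CPM in 1× glucose and 131 to 316 CPM in 2-DG, the mesoderm markers to 695 to 1014 and 432 to 778 CPM, the 4 endoderm markers to 23.3 to 190 and 19.2 to 70.0 CPM, and the 5 endothelial and blood markers to 2.68 to 8.79 and 1.46 to 1.77 CPM. The 5 pluripotency and germ cell markers summed to 28.5 to 45.6 CPM in 1× glucose and 48.3 to 62.0 CPM in 2-DG, without overlap. Of the 4 tested, 0 were called without the block. With the block 3 were called higher, where 41.3% of all genes were called. The neural, mesoderm and endoderm ranges overlapped between the groups. Without the block 3 of 6 neural markers were called higher. In the same fit 1 of 6 mesoderm, 1 of 4 endoderm and 1 of 4 tested endothelial and blood markers were called lower. This fit called 17.6% of all genes. The log2 fold change was positive for 2 of the 6 mesoderm markers. The part of all these markers in the lower level of Bcl2 was not tested. In the annotation an antisense gene, D630008O14Rik, overlaps exons of Bcl2 over 497 bases. The library kit keeps the strand, but the strand setting of the counting is not given in the sources used here.

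Bcl2l1 and Mcl1 were steadier. Bcl2l1 was at 50.6, 50.4 and 56.6 CPM in 1× glucose and 46.0, 55.6 and 55.0 CPM in 2-DG. These ranges overlapped, and the log2 fold change was -0.01 ± 0.093 (SE, edgeR adjusted p = 0.967). Mcl1 was at 167, 166 and 164 CPM in 1× glucose and 154, 158 and 159 CPM in 2-DG. The groups of Mcl1 did not overlap, but the difference was small, with a log2 fold change of -0.08 ± 0.046 that was not called (edgeR adjusted p = 0.282, and 0.0977 with the block). Of the 3 pro-survival members, Bcl2 was the one called lower, and it was also the one with the lowest level per length.

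The promoter of Bcl2 is shown because this gene was called in both comparisons with 2-DG. The RefSeq window from 250 bases before to 50 bases after its start (GRCm38, chr1:106714241-106714540, minus strand) has capitals at each GC box, the letters GGGCGG on either strand.
Bcl2: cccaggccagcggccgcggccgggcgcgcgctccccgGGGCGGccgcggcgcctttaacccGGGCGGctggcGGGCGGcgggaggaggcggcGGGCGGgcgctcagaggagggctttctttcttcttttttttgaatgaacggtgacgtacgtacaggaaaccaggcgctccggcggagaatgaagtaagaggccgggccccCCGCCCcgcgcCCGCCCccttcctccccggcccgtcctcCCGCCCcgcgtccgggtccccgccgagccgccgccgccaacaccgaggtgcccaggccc
It holds 7 GC boxes and 76.0% G and C. RefSeq promoter windows were found for 9 of the 10 members, 15 windows in all since some genes have several starts. A GC box stood in 8 of the 15, against 35.66% of 32851 mouse promoter windows of this length, and their median G and C content was 58.7%, against 52.7%. The cAMP response element TGACGTCA (1.79% of all windows), the C/EBP-ATF element TGATGNAA (3.97%) and the E-box CACGTG (7.15%) were in none of the 15. The forkhead letters TGTTTAC (3.65%) were in 1, at Bcl2l11. Both strands were searched, and such matches describe these letters in these windows and are no measure of binding.

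Of the effectors, Bak1 was level. It was at 78.3, 87.0 and 88.4 CPM in 1× glucose and 77.1, 80.6 and 85.2 CPM in 2-DG. The groups overlapped, and the log2 fold change was -0.06 ± 0.061 (SE, edgeR adjusted p = 0.544, and 0.149 with the block). Bak1 shares 257 bases of exon with Ggnbp1 on the opposite strand, which had 24 to 50 counts per library against 2504 to 4090 for Bak1.

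Bok was at 14.5, 8.68 and 7.54 CPM in 1× glucose and 8.23, 4.88 and 5.62 CPM in 2-DG, in the order of passages 13, 15 and 16. The passage 13 library in 2-DG lay above the 1× glucose library of passage 16, so that the groups overlapped, while within each passage the 2-DG library was the lower one. The differences of log2 CPM within passages were -0.81, -0.83 and -0.42. The log2 fold change of Bok was -0.71 ± 0.328 (SE, edgeR adjusted p = 0.164), and with the block -0.69 ± 0.0918 (SE, edgeR adjusted p = 0.000208). Bok had a single transcript in the files, and its blocked call was kept without any single library of either group, at an adjusted p of 0.000211 to 0.00201 from edgeR. The effector with the higher level thus stayed within its spread, and the one with the lower level was called with the block.

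Of the BH3-only genes, Bcl2l11 encodes Bim, which binds all pro-survival members and can activate the effectors. It was at 51.5, 67.4 and 71.4 CPM in 1× glucose and 49.0, 58.6 and 56.3 CPM in 2-DG. The groups overlapped, and the differences within passages were -0.07, -0.20 and -0.34 on the log2 scale. Its log2 fold change was -0.22 ± 0.132 (SE, edgeR adjusted p = 0.301), and with the block -0.21 (edgeR adjusted p = 0.0107). The blocked call was kept without any single library of either group, at an edgeR adjusted p of 0.00434 to 0.0475. It was lost when each gene was counted by its most abundant transcript alone (-0.13, edgeR adjusted p = 0.927).

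Bid links death receptors to mitochondria once caspase 8 has cleaved it. It was at 40.3, 34.0 and 39.4 CPM in 1× glucose and 24.7, 29.0 and 37.0 CPM in 2-DG. The groups overlapped, and passage 13 differed most, by -0.71 on the log2 scale, against -0.23 and -0.09 in passages 15 and 16. The log2 fold change was -0.33 ± 0.144 (SE, edgeR adjusted p = 0.147), and with the block -0.34 (edgeR adjusted p = 0.0201). This blocked call rests on passage 13: it was lost without its 2-DG library (adjusted p = 0.0582, edgeR), without its 1× glucose library (0.109) and without all libraries of passage 13 (0.0553). Without the 2-DG library of passage 16, by contrast, Bid was called without the block as well (-0.50, edgeR adjusted p = 0.0388).

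Bik, a BH3-only gene whose protein sits on the endoplasmic reticulum, was the least abundant member, with 11 to 32 counts in a library. It was at 0.703, 0.579 and 0.691 CPM in 1× glucose and 0.410, 0.354 and 0.293 CPM in 2-DG. The groups did not overlap. The log2 fold change of -0.90 ± 0.294 (SE) was the largest of the 10 members, but at this depth it was not called (edgeR adjusted p = 0.0586). It was called with the block (-0.91, edgeR adjusted p = 0.0315), but this call was missing from 5 of the 6 blocked fits without 1 library of either group (adjusted p 0.0404 to 0.123 over the 6) and from DESeq2 with the block (adjusted p = 0.151).

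Bmf, a BH3-only gene whose protein is held at the cytoskeleton until stress frees it, was the member called higher in 2-DG with the block. It was at 29.2, 15.7 and 15.3 CPM in 1× glucose and 44.6, 27.2 and 24.3 CPM in 2-DG. The 1× glucose library of passage 13 lay above the 2-DG libraries of passages 15 and 16, so that the groups overlapped, while each passage showed the higher value in 2-DG, by 0.61, 0.79 and 0.67 on the log2 scale. The log2 fold change was 0.68 ± 0.341 (SE, edgeR adjusted p = 0.204), and with the block 0.69 ± 0.0708 (SE, edgeR adjusted p = 4.31e-05). The blocked call of Bmf was kept without any single library of either group (adjusted p 0.000169 to 0.000511, edgeR). It was lost, and its direction turned, when each gene was counted by its most abundant transcript alone (-0.31, edgeR adjusted p = 0.804).

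Bad, whose protein is kept inactive by kinases of growth factor signalling, was at 16.3, 17.5 and 14.9 CPM in 1× glucose and 18.9, 17.9 and 17.8 CPM in 2-DG. The groups did not overlap, by a small margin, and the log2 fold change of 0.17 ± 0.098 (SE) was not called (edgeR adjusted p = 0.276, and 0.192 with the block). By its most abundant transcript alone it had the opposite sign (-0.41 with the block, not called by edgeR). Of the 5 BH3-only genes, none was called without the block, where 17.6% of all genes were. With the block 4 were called, where 41.3% of all genes were, Bmf in the direction opposite to Bcl2l11, Bid and Bik. The calls of Bcl2l11, Bid, Bik and Bmf carry the limits given above.

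Passage 13 stood apart in the marker genes, so the comparison was repeated without its 4 libraries, a choice made after seeing the data. Then 4 of 10 members were called without a block, where 20.1% of all genes were: Bcl2, Bok (-0.63, edgeR adjusted p = 0.0113) and Bcl2l11 (-0.27, 0.0178) lower, and Bmf higher (0.73, 0.00541). The libraries of passages 15 and 16 were also in the full fits. Bok, Bcl2l11 and Bmf differed between passage 13 and the later passages, so leaving passage 13 out also removed this spread. These calls are therefore no separate support.

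**Figure D3:**
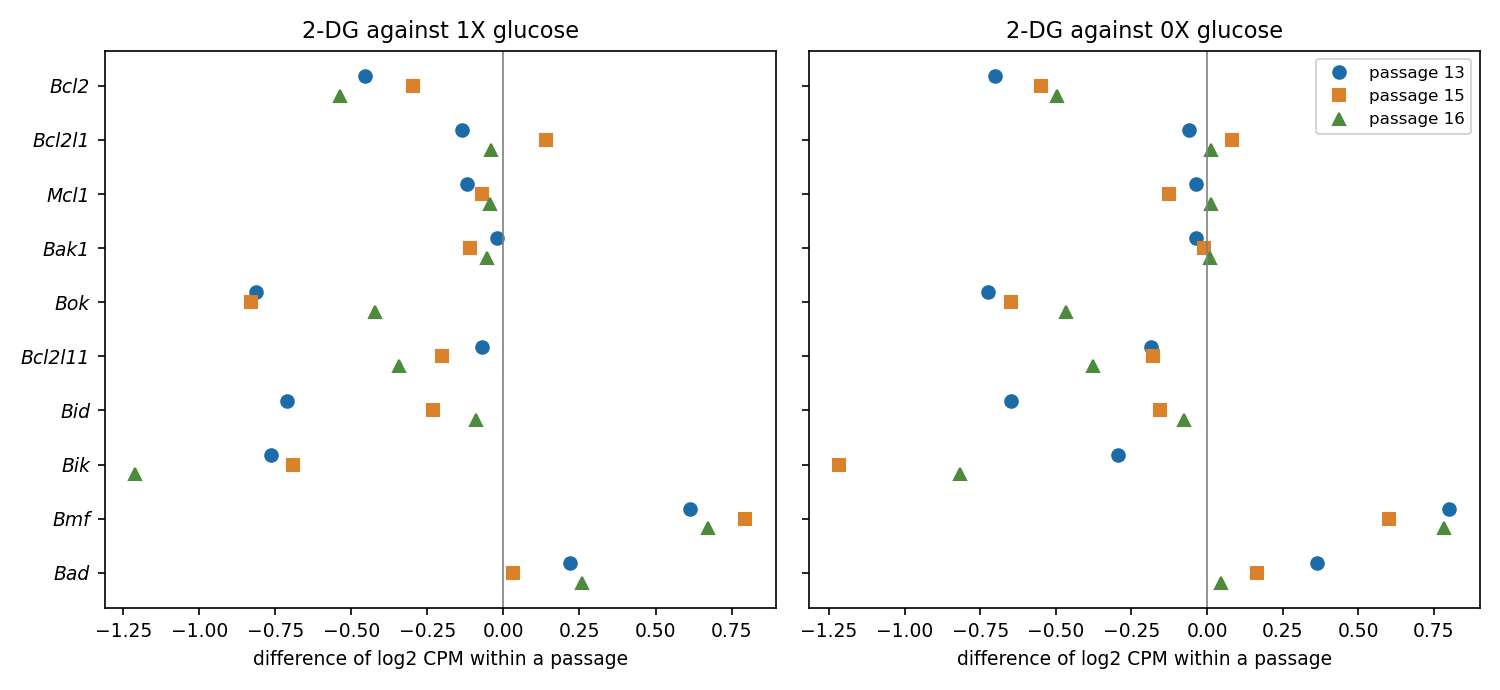
Difference of log2 CPM between the 2-DG library and the 1× glucose library (left) or the 0× glucose library (right) of the same passage, for each of the 10 members, with 1 point per passage. In the left panel 9 of 10 members have all 3 points on the same side of 0, and Bcl2l1 does not. The share of all genes with this trait was not counted.

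The comparison of 2-DG with 0× glucose asks whether 2-DG differs from the absence of glucose itself. Bcl2 was again the only member called without the block, where 18.9% of all genes were called, and 5 of 10 were called with it (4 lower, 1 higher), against 43.1% of all genes. The 2-DG libraries are the same ones as in the comparison above, so that the values of both comparisons are not independent. Bcl2 was at 19.8, 19.8 and 18.2 CPM in 0× glucose, above all 2-DG libraries, and the log2 fold change was -0.58 ± 0.083 (SE, edgeR adjusted p = 0.00129). Bok was at 13.6, 7.65 and 7.77 CPM in 0× glucose, with a log2 fold change of -0.63 (edgeR adjusted p = 0.210, and 0.000422 with the block). Bmf was at 25.6, 17.9 and 14.1 CPM, with a log2 fold change of 0.74 (edgeR adjusted p = 0.162, and 2.89e-05 with the block). Each passage had the lower value of Bcl2 and Bok and the higher value of Bmf in 2-DG. Bcl2l11 (-0.25, edgeR adjusted p = 0.00409) and Bid (-0.28, 0.0415) were called lower with the block and not without it. Without 1 library of either group, 5 of the 6 blocked fits no longer called Bid (edgeR adjusted p 0.0222 to 0.188 over the 6). Bik had a log2 fold change of -0.82 and was called by neither fit (edgeR adjusted p = 0.0824, and 0.0531 with the block). The libraries of both groups did not overlap for 3 of 10 members, Bcl2, Bik and Bad, as for 37.9% of all genes.

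The amount of glucose alone moved no member past the threshold. In 0× against 1× glucose 0 of 10 members were called, and 0.0118% of all genes were. The log2 fold changes of the members lay between -0.08 (Bok and Bik) and 0.15 (Bcl2), and the blocked fit also called 0 members. In 3× against 1× glucose 0 of 10 members and 0% of all genes were called by edgeR, 178 genes had an unadjusted p under 0.05, DESeq2 called 2 genes, and the members lay between -0.29 (Bik) and 0.17 (Bmf). In 3× against 0× glucose 0 of 10 members were called, and 0.0118% of all genes were. Bcl2 was at 14.7, 14.9 and 16.4 CPM in 3× glucose, below all 1× glucose libraries and below all 0× glucose libraries. The 3× and 1× glucose libraries did not overlap for 1 of 10 members, Bcl2, and for 4.47% of all genes. The 3× and 0× glucose libraries did not overlap for 1 of 10 members either, again Bcl2, and for 9.01% of all genes, a share close to that of the members. Its mean was 19.3 ± 0.939 CPM (SD, n = 3) in 0×, 17.4 ± 1.17 in 1×, 15.3 ± 0.915 in 3× glucose and 12.9 ± 0.680 in 2-DG. The 0× and 1× glucose libraries of Bcl2 overlapped, because the order was turned in passage 16 (18.2 and 18.7 CPM). The log2 fold change of Bcl2 in 3× against 0× glucose was -0.33 ± 0.083 (SE, unadjusted p = 0.00226, edgeR adjusted p = 0.834, and 0.0851 with the block), so the difference did not pass the test over all genes.

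Of the 10 members, 6 differed between the 3 ES cell passages at an adjusted p under 0.05 in the fit with treatment and passage, where 46.2% of all genes did. Each passage was 1 culture, so the test compares these cultures. Bmf (edgeR adjusted p = 6.57e-06) and Bok (4.06e-05) differed most. Bmf was at 25.6 to 44.6 CPM in the 4 libraries of passage 13, 15.7 to 27.2 CPM in passage 15 and 14.1 to 24.3 CPM in passage 16. Bok was at 8.23 to 14.5, 4.88 to 8.99 and 5.62 to 8.83 CPM. Within each treatment the passage 13 library was the highest for both genes, with log2 differences of -0.71 and -0.75 in passage 15 against 13 and -0.87 and -0.75 in passage 16 against 13 for Bmf and Bok. Bcl2l11 went the other way, lowest in passage 13 in each treatment, with log2 differences of 0.27 and 0.32 in passages 15 and 16 (edgeR adjusted p = 0.000688). Bak1 (0.07 and 0.14, edgeR adjusted p = 0.00692) and Bcl2l1 (0.11 and 0.21, 0.00891) were higher in the later passages by less. Bid (-0.08 and 0.20) was near the threshold (edgeR adjusted p = 0.0472). Bcl2, Mcl1, Bik and Bad were not called (edgeR adjusted p 0.193 to 0.853). For Bmf the difference between passages 13 and 16 was thus larger than that between 2-DG and 1× glucose, while for Bcl2 it was 0.07 against -0.43 on the log2 scale. Neural and endoderm markers moved with passage, as given above, and their part in these differences was not tested.

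The files count transcripts, and the counting program shared reads between transcripts of a gene, so the shares below are a description. Bad had 2 transcripts with separate starts. The share of Bad counts on the one with the upstream start (NM_007522.3, from chromosome 19 position 6941861) was 38.4% to 46.5% in 1× glucose, 37.1% to 41.4% in 3× glucose, 37.8% to 56.1% in 0× glucose and 54.3% to 70.1% in 2-DG. All 2-DG libraries lay above all 1× and 3× glucose libraries, and they overlapped with 0× glucose. The other transcript (NM_001285453.1) starts 3′ of it, at position 6942501, and had 356 to 424 counts in 1× glucose and 196 to 296 counts in 2-DG. The upstream one had 264 to 333 and 351 to 460 counts, although the 1× glucose libraries were the deeper ones. The 2 promoter windows (GRCm38, plus strand, chr19:6941611-6941910 and chr19:6942312-6942611 in RefSeq) are shown because the counts at these starts went in opposite directions, with GC boxes in capitals.
Bad, upstream start: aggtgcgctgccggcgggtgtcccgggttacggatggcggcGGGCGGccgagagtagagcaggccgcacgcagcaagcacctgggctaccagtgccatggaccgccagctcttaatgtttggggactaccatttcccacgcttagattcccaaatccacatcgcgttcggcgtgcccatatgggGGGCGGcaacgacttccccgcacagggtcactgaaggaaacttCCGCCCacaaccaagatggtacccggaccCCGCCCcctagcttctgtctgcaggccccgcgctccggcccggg
Bad, downstream start: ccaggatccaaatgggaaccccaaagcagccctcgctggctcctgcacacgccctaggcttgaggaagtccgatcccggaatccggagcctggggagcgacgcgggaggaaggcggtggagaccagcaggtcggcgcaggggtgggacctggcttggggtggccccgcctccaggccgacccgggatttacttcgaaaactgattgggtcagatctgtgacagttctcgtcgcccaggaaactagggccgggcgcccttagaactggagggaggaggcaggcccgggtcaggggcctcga
The upstream window holds 4 GC boxes and the downstream window none. The RefSeq start of the downstream window lies somewhat 3′ of the GENCODE start given above.

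**Figure D4:**
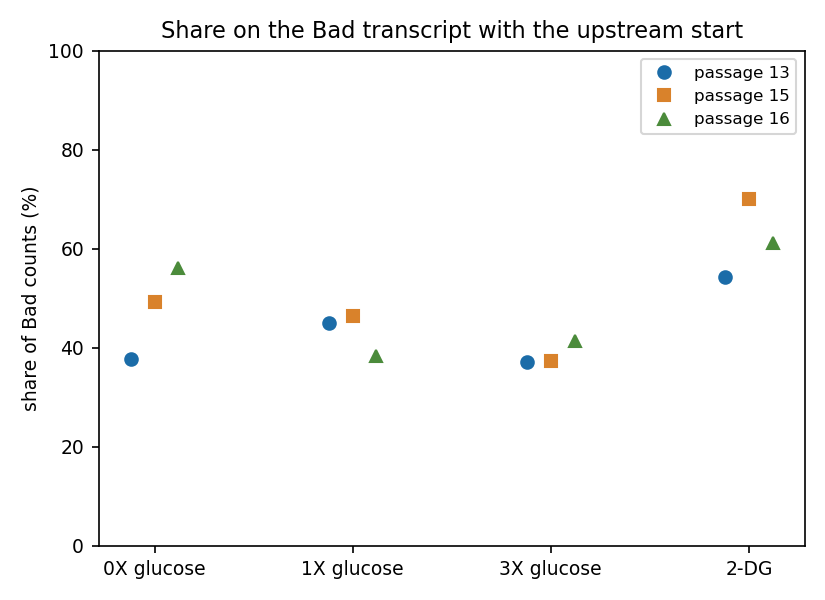
Share of the counts of Bad that fell on the transcript with the upstream start (vertical axis, percent, 0 to 100) in each library, by treatment, with 1 point per library in the colour and shape of its passage. The 3 libraries of 2-DG are at 54.3% to 70.1%, and those of 1× glucose at 38.4% to 46.5%.

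Among the other members, Bcl2 was carried by NM_009741.5, with 90.4% to 98.8% of its counts in all libraries, and Bok by 1 transcript. In Bmf, Bcl2l11 and Bik the shares were unsteady between libraries. Bmf counts lay between 2 transcripts, NM_138313.4 and XM_006498855.2, and the share of the first ran from 21.9% to 93.8% in 1× glucose, 93.6% to 98.1% in 3× glucose and 7.08% to 54.5% in 2-DG. Transcripts NM_009754.3 and XM_006498617.3 of Bcl2l11 were at 0 counts in all 2-DG libraries and at 58 to 146 and 42 to 147 counts in 1× glucose. One 3× glucose library was at 0 for both as well. Bik counts moved between 3 transcripts from library to library. When each gene was counted by its most abundant transcript alone, Bcl2 kept its log2 fold change of -0.42 in 2-DG against 1× glucose but was not called (edgeR adjusted p = 0.0735), and 653 genes were called in place of 2990. With the block 2 of 10 members, Bcl2 and Bok, were called in that count, where 12% of all genes were. There Bmf and Bad were lower in 2-DG, at -0.31 and -0.41, opposite in sign to their sums over transcripts, and neither was called.

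Other genes of the cell death machinery were taken from lists, and Hrk, the BH3-only gene Harakiri, was the called gene of the other Bcl2 family members. Of 13 such genes 9 were tested. Without the block 1 was called higher in 2-DG than in 1× glucose and 0 lower, where 17.6% of all genes were called. With the block 3 were called higher and 2 lower, where 41.3% of all genes were called. Hrk was at 1.36, 0.816 and 1.02 CPM in 1× glucose and 3.28, 2.89 and 2.16 CPM in 2-DG, and its log2 fold change was 1.37 ± 0.229 (SE, edgeR adjusted p = 0.00308). All 2-DG libraries lay above all others. Bax, the effector that moves to mitochondria on stress, was at 139 to 143 CPM in 1× glucose and 151 to 154 CPM in 2-DG (0.11, edgeR adjusted p = 0.0853, and 0.0229 with the block). The p53 targets Bbc3 (0.14, edgeR adjusted p = 0.382) and Pmaip1 (0.07, 0.935), which encode Puma and Noxa, were called by neither fit. The pro-survival genes Bcl2a1a, Bcl2a1b and Bcl2a1d were at 0 counts in all libraries. Bcl2l2, another pro-survival gene, was at 40.7 ± 1.52 CPM (SD, n = 3) in 1× glucose and 47.3 ± 3.92 CPM in 2-DG. For Bcl2l2 all 2-DG libraries lay above all 1× glucose libraries. The differences within passages 13, 15 and 16 were 0.26, 0.25 and 0.14 on the log2 scale. Without the block Bcl2l2 was not called.

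Of 7 genes of the apoptosome and caspases, 1 was called higher and 2 lower without the block, where 17.6% of all genes were called. Casp2 (-0.23, edgeR adjusted p = 0.0314) and Casp6 (-0.49, 0.0458) were lower. Apaf1, the scaffold on which caspase 9 is activated, was higher (0.26, edgeR adjusted p = 0.0220). Of 7 genes of death receptors and adaptors, 4 were called higher and 0 lower. They were the receptors Tnfrsf1a (0.49, edgeR adjusted p = 0.00618) and Tnfrsf10b (0.48, 0.0398), the caspase 8 inhibitor Cflar (0.73, 0.0118) and the kinase Ripk1 (0.40, 0.0129). None of 7 inhibitors of apoptosis and their antagonists was called by edgeR in either direction without the block. With the block 1 was called lower, Diablo (-0.15, edgeR adjusted p = 0.00986), where 41.3% of all genes were called. Without the block 0 genes of this list had an unadjusted p under 0.05.

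Of 10 transcriptional regulators of Bcl2 family genes, 3 were called higher and 1 lower without the block, where 17.6% of all genes were called. Atf4, which drives the integrated stress response, was at 149, 143 and 133 CPM in 1× glucose and 199, 228 and 169 CPM in 2-DG (0.49, edgeR adjusted p = 0.00613). Its target Ddit3, the gene of CHOP, was higher as well (0.76, edgeR adjusted p = 0.00972), as was the p53 relative Trp73 (1.42, 0.0178). Creb1 was lower (-0.21, edgeR adjusted p = 0.0233). Of 16 post-translational partners of the proteins, such as the dynein light chains that hold Bim and Bmf, 0 were called without the block. With the block edgeR called 4 (1 higher, 3 lower), where 41.3% of all genes were called. In 0× and in 3× against 1× glucose, 0 genes of these 6 lists were called by either fit.

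**Figure D5:**
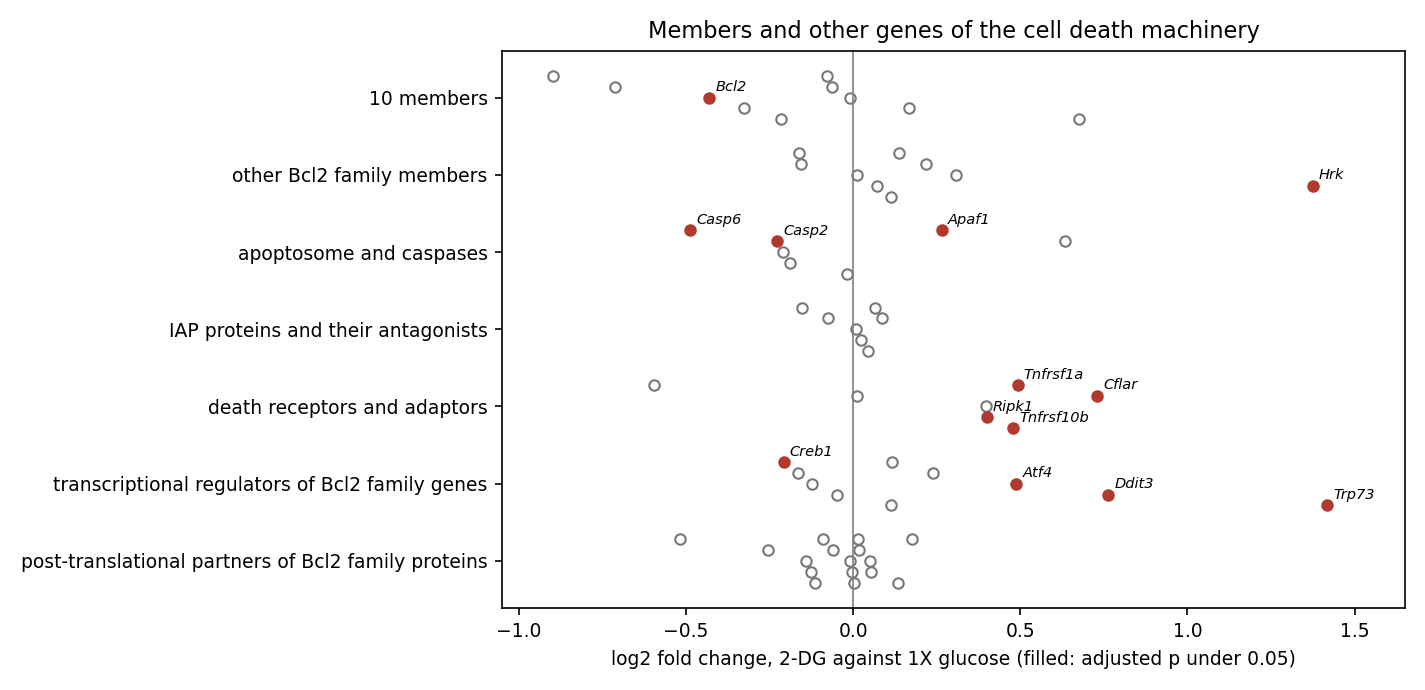
Log2 fold change in 2-DG against 1× glucose (horizontal axis) of each tested gene of the 10 members and of 6 lists of other genes of cell death, 1 point per gene, filled and named where edgeR's adjusted p without a block was under 0.05. Bcl2 at -0.43 is the named member, and Hrk at 1.37 and Trp73 at 1.42 lie farthest to the right.

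The 3 tested genes whose log2 CPM ran most like that of Bcl2 over the 12 libraries were Cnih2 and Col13a1 (Pearson r = 0.96 each) and Eftud2 (r = 0.93). These values are a description over libraries that share treatments and passages.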

How the data were processed

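RNA of E14TG2a gastruloids was sequenced in 12 libraries, 3 per treatment. The authors deposited 1 table of estimated counts per library, for 120312 RefSeq transcripts, made on Galaxy with Trim Galore, HISAT2, Picard (removal of duplicates) and StringTie; the submitters' notes name build mm10, and versions and settings are not given in the sources used here. Their 3 tables of DESeq2 fold changes and p-values were not used. All transcripts were matched to a gene symbol through a RefSeq table, and the expected counts, whole numbers as deposited, were summed per gene.

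The main test was edgeR 4.0.16 (R 4.3.3; glmQLFit and glmQLFTest, two-sided) on all 12 libraries with TMM scaling, filterByExpr and Benjamini-Hochberg adjustment over 16966 genes at 0.05. The titles give an ES cell passage, which pairs libraries as shared cultures. Deviations from group means correlated at 0.0963 to 0.623 in the 18 pairs of 1 passage and at most 0.191 in 36 other pairs. A fit with passage as a block, DESeq2 1.42.0, other scaling, no filter, only the 2 groups compared, the most abundant transcript and leaving out each library were alternatives. Standard errors are log2 fold changes over the root of F. The count tests were tested on simulated data. Lengths came from GENCODE M21 and promoters from RefSeq.

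The members, gene lists and tests were chosen with earlier results of these data known. All 10 members are reported, with up to 4 called genes per list by smallest adjusted p, and Bax, Bbc3 and Pmaip1 in any case. Bcl2l2 was named after seeing the data. For Bcl2, the 3 genes with the highest Pearson r are named. One gene of the apoptosome and caspases list is not reported here.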

Additional observations from a re-analysis of the deposited data

How the results depend on the processing

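With the replicate block (passage), the count of members called rose from 1 to 6 in 2-DG against 1× glucose and from 1 to 5 in 2-DG against 0× glucose, and of all genes from 2990 to 7001 and from 3207 to 7305; in 3× against 0× glucose, 136 genes were called in place of 2. The block changed no other call of a member. Without passage 13, chosen after seeing the data, 4 members were called in both 2-DG comparisons, where 20.1% and 22.6% of all genes were. By the most abundant transcript, 0 members were called in 2-DG against 1× glucose (653 genes), 1 between passages, and 2 with the block in each 2-DG comparison (2015 and 2168 genes); there the blocked log2 fold changes turned to 0.024 for Bid, 0.10 for Bik, -0.31 for Bmf and -0.41 for Bad against 1× glucose, and to -0.12 for Bmf and -0.25 for Bad against 0× glucose. The cause was not tested. Using the 2 groups alone, 1896 genes were called. Leaving out 1 library gave 1 to 2 members in 2-DG against 1× glucose, 4 to 6 with the block, 1 in 2-DG against 0× glucose, 4 to 5 with the block, 5 to 6 between passages and 0 in the other comparisons; all genes called in these 2-DG comparisons ran from 1734 to 2352 and from 2051 to 2619, with the block from 5407 to 6382 and from 5871 to 6607, and between passages from 5857 to 7805. DESeq2 called 12, 2 and 32 genes in 0× against 1×, 3× against 1× and 3× against 0× glucose, none of them a member. Counts of 11 to 32 limit Bik.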
